A study of Mus musculus with 10 samples.

Results

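Neutrophils store their antimicrobial and matrix-degrading proteins in granules that are filled in order as the cell matures. Primary granules are filled first, in promyelocytes. Secondary granules, rich in lactoferrin and cathelicidin, follow in myelocytes and metamyelocytes, and tertiary granules, rich in gelatinase, are filled last, in band cells. Because each protein goes to the granule that is forming while its gene is on, the mRNAs of the later granules mark the late stages of granulocyte maturation in the bone marrow.

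The 9 genes described here encode proteins of the secondary and tertiary granules, or proteins made with them: Ltf, Camp, Ngp, Lcn2, Mmp8, Mmp9, Cd177, Chil1 and Chil3. They were chosen by name, and all 9 were among the 10141 genes of the deposited table and passed its filter on low values. Leukaemia cells were GFP+ cells carrying the MLL-AF9 fusion gene, sorted from the bone marrow of CD45.1 mice that had been injected with such cells through the tail vein. Myeloid cells were the GFP-negative CD11b+ cells of the same kind of leukaemic marrow, so both groups came from diseased mice collected when 2% of blood cells were GFP+. Each group held 5 libraries. MLL-AF9 joins the histone methyltransferase MLL to AF9 and drives acute myeloid leukaemia, GFP marks the cells that carry it, and CD11b is a surface integrin of myeloid cells. The labels give neither the age or sex of the mice nor whether the libraries came from separate mice, so p-values cover the spread among the libraries and nothing wider. The labels name flow cytometry as the sort of both groups, while the series text names magnetic selection of CD45.2-negative CD11b+ cells for the myeloid group. The cell type field reads as leukaemia cells for all 10 libraries, and groups were taken from the titles.

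The genes of the table held 24099551 to 30879584 reads in the leukaemia libraries and 24712749 to 32247803 in the myeloid libraries. The MLL-AF9 programme genes were higher in the leukaemia libraries for 8 of 8 members, against 49.1% of all genes tested. Hoxa9 had 2882 to 3671 normalised reads in leukaemia and 7.33 to 21.0 in myeloid libraries. The most abundant of that list, Mef2c, had 5194 ± 363 and 1321 ± 313 normalised reads in leukaemia and myeloid libraries (SD, n = 5 each). Of the genes tested, 99.8% passed the limma test in one direction or the other, so a call by itself says little about any gene of the table. The highest unadjusted limma p of any of its 10141 genes was 0.243, and its order followed p (Spearman rho 0.98, across genes). The sources used here do not say how its genes were picked. Itgam, which encodes CD11b, had 12227 ± 1128 and 97794 ± 13874 normalised reads in leukaemia and myeloid cells. Principal components of the tested genes were taken over both groups together, on deviations from the group means. The first held 48.5% of this pooled within-group variance and set myeloid replicates 2 and 4 apart from the other 3 myeloid libraries. Its scores spread more widely among the myeloid than among the leukaemia libraries, and no value was computed for either group alone. The shares, the pair differences, some log2 differences and the number of genes called are also given without replicates 2 and 4 of both groups. Folds, ranks, marker sums and list counts are given with all libraries only.

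Stretches of promoter are shown for 4 of the genes, because they include the pair with the largest and the smallest fold differences between the groups among the chitinase-like genes, the iron-binding protein most typical of secondary granules, and the surface glycoprotein. Each runs 5′ to 3′ over the 150 bases before the gene's RefSeq start on GRCm38.p6. Capitals mark matches to the C/EBP motif TTNNGNAA on either strand and, in Cd177 alone, to TATAAA.
Ltf, chr9:111019142-111019291, plus strand: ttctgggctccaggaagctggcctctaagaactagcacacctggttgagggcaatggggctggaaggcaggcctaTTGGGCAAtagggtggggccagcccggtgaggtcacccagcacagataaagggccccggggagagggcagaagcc
Cd177, chr7:24760312-24760461, minus strand: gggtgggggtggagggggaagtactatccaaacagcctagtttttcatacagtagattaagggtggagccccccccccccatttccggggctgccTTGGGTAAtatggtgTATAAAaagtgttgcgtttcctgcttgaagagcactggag
Chil1, chr1:134182006-134182155, plus strand: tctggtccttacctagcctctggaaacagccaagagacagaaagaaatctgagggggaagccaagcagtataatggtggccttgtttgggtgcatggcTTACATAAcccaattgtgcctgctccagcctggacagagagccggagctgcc
Chil3, chr3:106167565-106167714, minus strand: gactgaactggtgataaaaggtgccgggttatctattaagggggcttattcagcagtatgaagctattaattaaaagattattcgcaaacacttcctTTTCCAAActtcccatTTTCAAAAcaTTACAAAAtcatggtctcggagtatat
RefSeq windows were at hand for 8 of the 9 genes, all but Mmp9. A match to TTNNGNAA lay in 6 of 8 windows (Ltf, Ngp, Mmp8, Cd177, Chil1 and Chil3), against 22.7% of all 32851 windows of that length. GAGGAA, the core bound by PU.1, was found on either strand in 1 of 8, that of Lcn2 (14.5% of all windows). TGTGGT, bound by RUNX factors, was found in 0 of 8 (8.40% of all), and TATAAA in 1 of 8 (7.57% of all). The motifs do not overlap one another in these windows. GENCODE places a transcript start of Camp, Ngp, Lcn2 and Ltf 161, 61, 58 and 21 bases upstream of the RefSeq one, so the letters of their windows depend on which start is used. This holds for Chil1 too, whose first GENCODE start found lay 20 bases downstream, with none at the RefSeq start. For Mmp8 no GENCODE start was found near the RefSeq one. A match is a description of the letters, and binding of any factor was not measured.

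All 9 genes were lower in the GFP+ leukaemia cells, by 10.1-fold to 275-fold, and for none of them did the groups overlap, as for 86.8% of tested genes in either direction. Lower calls made up 50.7% of the genes tested, and genes lower without overlap made up 44.3%, so the direction alone does not set these genes apart. A log2 difference of -3 or lower was reached by all 9, against 1.42% of the genes tested. Cd177 and Chil3 did not reach it after quantile normalisation (-2.46 and -2.20) or with voom and the table total (-2.77 and -2.68), where the other 7 did. Of all genes tested, 1% reached it after quantile normalisation and 2.82% with voom and the table total. With voom and size factors all 9 reached it, against 4.33% of the genes tested. The median log2 difference was -5.70 over the 9 genes and -0.16 over all genes tested. Of 8079 genes ordered from the lowest log2 difference, Mmp9, Mmp8, Ltf, Chil1, Lcn2 and Ngp stood at places 2, 3, 4, 5, 6 and 9, Camp at 21, Cd177 at 73 and Chil3 at 80. These places are on the deposited scale, which compresses low values, so a gene with few reads can stand behind one with a smaller fold. Ngp was 40.6-fold lower at -5.29, while Fpr1 was 151-fold lower at -4.56 and Chit1 471-fold lower at -1.93. Places on other scales are not given. These were libraries of mixed cells, so fewer cells that express a gene and less of its RNA per cell cannot be told apart.

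**Figure D1:**
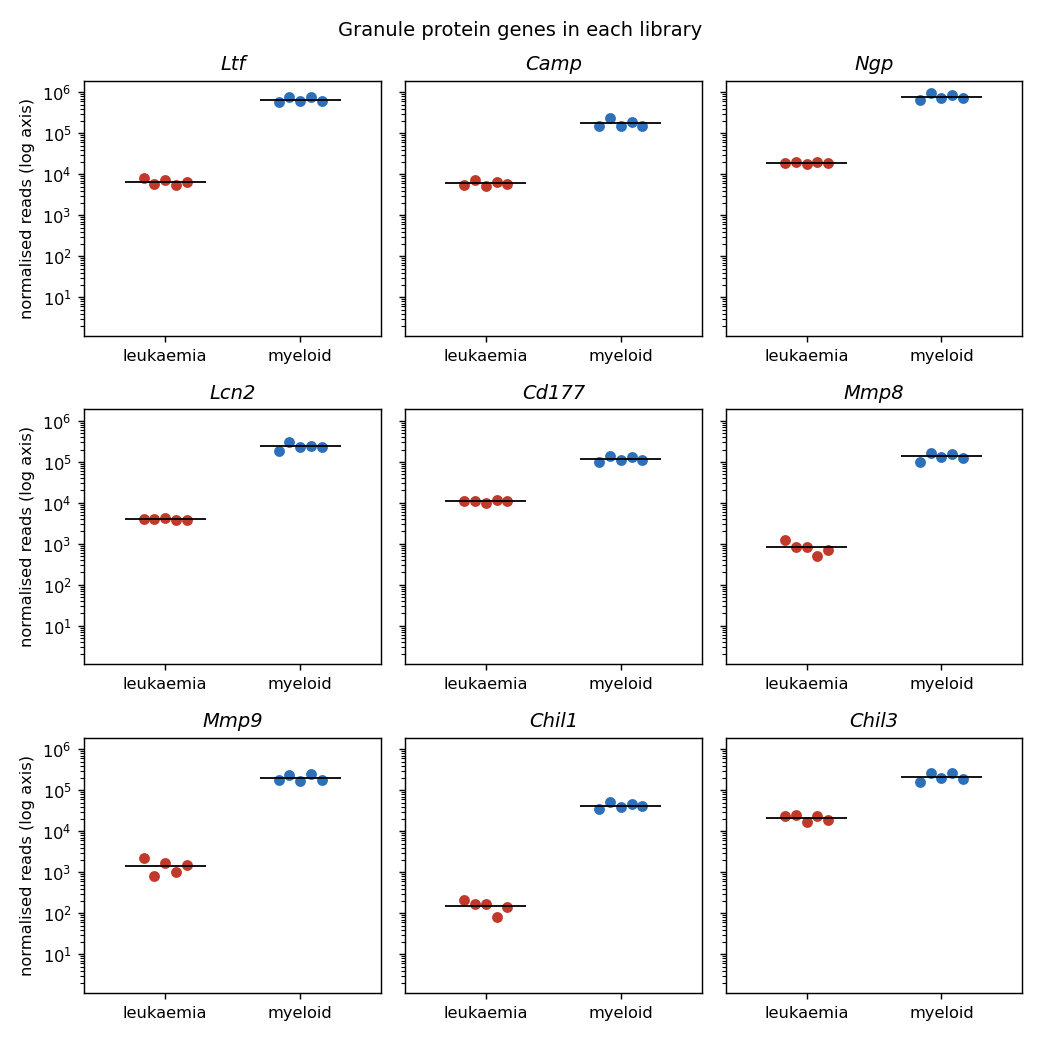
Normalised reads (log axis) of the 9 granule genes in each of 5 leukaemia and 5 myeloid libraries, 1 point per library in order of replicate number, with the group mean as a line. Every leukaemia point lies below every myeloid point, with the narrowest gap for Chil3 and the widest for Chil1.

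The genes of 2 proteins that withhold iron from bacteria were both far lower. Ltf encodes lactoferrin, which binds free iron and is a defining protein of secondary granules. In leukaemia replicates 1 to 5 it had 7993, 5898, 7255, 5545 and 6672 normalised reads, against 571715, 752476, 622431, 765852 and 628637 in the myeloid replicates. The highest leukaemia library thus lay 71.5-fold below the lowest myeloid one, and leukaemia replicates 2 and 4 were the low ones of their group while myeloid replicates 2 and 4 were the high ones of theirs. The means were 6673 ± 994 and 668222 ± 86035 in GFP+ and CD11b+ cells (SD, n = 5 each), a 100.1-fold difference (limma log2 difference -6.53, SE 0.12, adjusted p = 3.39e-13). Lcn2 encodes lipocalin-2, which captures bacterial siderophores. It had 4139, 3941, 4272, 3747 and 3872 normalised reads in leukaemia, against 183580, 297718, 235743, 245539 and 230751 in myeloid libraries. Its leukaemia values were close together, with a coefficient of variation of 5.27%, against 17.1% in myeloid cells, where replicate 1 was lowest and replicate 2 highest. The difference was 59.8-fold (limma log2 difference -5.70, SE 0.11, adjusted p = 5.23e-13).

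Camp and Ngp encode members of the cathelicidin and cystatin-like group of granule proteins. Camp gives the mouse cathelicidin, whose released peptide is antimicrobial, and Ngp gives neutrophilic granule protein. Camp had 5430, 7353, 5200, 6597 and 5965 normalised reads in leukaemia, against 148362, 232812, 151904, 190629 and 153871 in myeloid libraries. Replicates 2 and 4 were the high ones in both groups for this gene. The difference was 28.7-fold (limma log2 difference -4.71, SE 0.13, adjusted p = 6.75e-12). Ngp had 19111, 20356, 18009, 20308 and 19406 normalised reads in leukaemia, against 659187, 987109, 731478, 852841 and 718204 in myeloid libraries. It had the tightest leukaemia values of the 9 genes, with a coefficient of variation of 4.98%, and was 40.6-fold lower there (limma log2 difference -5.29, SE 0.11, adjusted p = 8.83e-13).

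Ngp was second of all genes of the table by reads per kilobase of exon in myeloid cells, and place 53 in leukaemia cells. Camp, Ngp and Ltf lie on chromosome 9, with 28 other coding genes between Camp and Ltf in the RefSeq order. Of these 28, 14 had an entry and 11 were tested. In leukaemia 4 of them passed as higher and 7 as lower, against 49.1% and 50.7% of all genes tested. Their log2 differences ran between -1.78 (Nbeal2, a gene of platelet and leukocyte granules) and 1.31 (Smarcc1, a chromatin remodelling subunit). None of the tested genes in between therefore came near the differences of the 3 granule genes. Next to Cd177, Ceacam10 was also lower (limma log2 difference -3.31, adjusted p = 2.61e-11). Ccrl2, which follows Ltf, had a log2 difference of -0.47 that did not pass (limma adjusted p = 0.077).

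The metalloproteinase genes had the lowest log2 differences of the 9. Mmp8, neutrophil collagenase, is a secondary granule enzyme that cuts fibrillar collagen. It had 1231, 857, 825, 496 and 712 normalised reads in leukaemia, against 101611, 161854, 130211, 156724 and 125387 in myeloid libraries. Its leukaemia libraries spanned 2.48-fold, with replicate 1 high and replicate 4 low, and the highest still lay 82.5-fold below the lowest myeloid one. The difference was 164-fold (limma log2 difference -6.67, SE 0.15, adjusted p = 1.46e-12). Mmp9 is gelatinase B, the enzyme by which tertiary granules are known. It had 2228, 808, 1710, 1027 and 1546 normalised reads in leukaemia, against 179253, 237881, 165878, 247681 and 177244 in myeloid libraries. Replicates 2 and 4 were low in leukaemia and high in myeloid cells, and the spread in leukaemia was the widest of the 9 genes, with a coefficient of variation of 38.5%. The difference was 138-fold (limma log2 difference -6.69, SE 0.19, adjusted p = 6.18e-12).

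Cd177 encodes a glycoprotein anchored to the membrane of secondary granules and to the cell surface, which in human neutrophils displays proteinase 3. It had 11221, 11190, 10037, 11650 and 11059 normalised reads in leukaemia, against 99057, 140241, 108007, 133255 and 110751 in myeloid libraries. Its leukaemia values were close together (coefficient of variation 5.43%), and the lowest myeloid library lay 8.50-fold above the highest leukaemia one. Cd177 was 10.7-fold lower in leukaemia (limma log2 difference -3.35, SE 0.10, adjusted p = 9.75e-12). Prtn3, the gene of proteinase 3, went the other way, with 42648 ± 7045 and 5476 ± 2403 normalised reads in leukaemia and myeloid cells (limma log2 difference 2.90, adjusted p = 2.39e-08). Pecam1, which encodes the endothelial and leukocyte adhesion protein that human CD177 binds, was also higher in leukaemia, at 6812 ± 483 against 758 ± 83.0 (limma log2 difference 2.54, adjusted p = 3.52e-12).

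The 2 chitinase-like genes stood at opposite ends of the 9 by fold. Chil1 encodes a chitin-binding lectin without chitinase activity, whose human counterpart is stored in secondary granules. It had 214, 165, 170, 80.7 and 141 normalised reads in leukaemia, against 34829, 50975, 39060, 46474 and 40745 in myeloid libraries. Its leukaemia values rested on 95 to 277 reads, the fewest of the 9 genes, and replicate 4 was low among them. The difference was 275-fold, the highest of the 9 (limma log2 difference -6.18, SE 0.11, adjusted p = 3.21e-13). The deposited scale compresses low values, which is why its log2 difference is smaller in size than those of Ltf, Mmp8 and Mmp9 although its ratio of reads is larger.

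Chil3 encodes Ym1, a lectin of rodent neutrophils and alternatively activated macrophages. It had 23157, 24420, 16645, 24146 and 19304 normalised reads in leukaemia, against 162316, 270338, 201210, 260422 and 191772 in myeloid libraries. It had the highest leukaemia mean of the 9 genes, at 21535 ± 3415 against 217212 ± 46385, and the smallest difference, at 10.1-fold (limma log2 difference -3.29, SE 0.15, adjusted p = 4.19e-10). Replicate 3 was low in leukaemia, and the highest leukaemia library lay 6.65-fold below the lowest myeloid one. Chil4, a near-identical neighbour of Chil3, lay under the filter with 0 to 8.86 normalised reads in leukaemia and 54.8 to 318 in myeloid libraries, and reads may have been split between the pair by the authors' counting.

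Set per kilobase of exon, the order of the 9 levels differed between the groups. In leukaemia cells it ran Ngp, Chil3, Camp, Cd177, Ltf, Lcn2, Mmp9, Mmp8 and Chil1, with 15907 ± 792 normalised reads per kilobase for Ngp and 55.0 ± 17.4 for Chil1. The ranges of Ngp and Chil3, of Ltf and Lcn2, and of Mmp9 and Mmp8 overlapped. In myeloid cells the order was Ngp, Camp, Ltf, Chil3, Lcn2, Mmp9, Mmp8, Cd177 and Chil1, with 646288 ± 107083 for Ngp and 15127 ± 2265 for Chil1. There the ranges of Camp and Ltf, of Chil3 and Lcn2, of Mmp9 and Mmp8, and of Mmp8 and Cd177 overlapped. By the longest annotated transcript in place of all exons, Lcn2 stood above Ltf in leukaemia cells, and Ltf above Camp and Lcn2 above Chil3 in myeloid cells, all of them pairs whose ranges by exon length overlapped. By either length Ltf stood below Cd177 in leukaemia cells and above it in myeloid cells, and by exon length their ranges overlapped in neither group.

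Together the 9 genes took 0.334%, 0.331%, 0.289%, 0.324% and 0.307% of the reads of the table in leukaemia replicates 1 to 5. In the myeloid replicates they took 6.58%, 8.22%, 7.13%, 7.75% and 7.08%. The shares were tight within each group and far apart between them, at 0.317% ± 0.0189 in leukaemia libraries and 7.35% ± 0.638 in myeloid libraries (SD, n = 5 each), and the leukaemia share was 23.2-fold lower. With reads counted per kilobase of exon the shares were 0.650% and 11.5% in leukaemia and myeloid libraries, 17.6-fold apart. No p is given for this sum over chosen genes. Among the 10 genes with most reads in myeloid cells 5 were of this set, and among the 10 in leukaemia 0 were. Without replicates 2 and 4 of both groups the shares were 0.310% in leukaemia and 6.93% in myeloid cells.

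**Figure D2:**
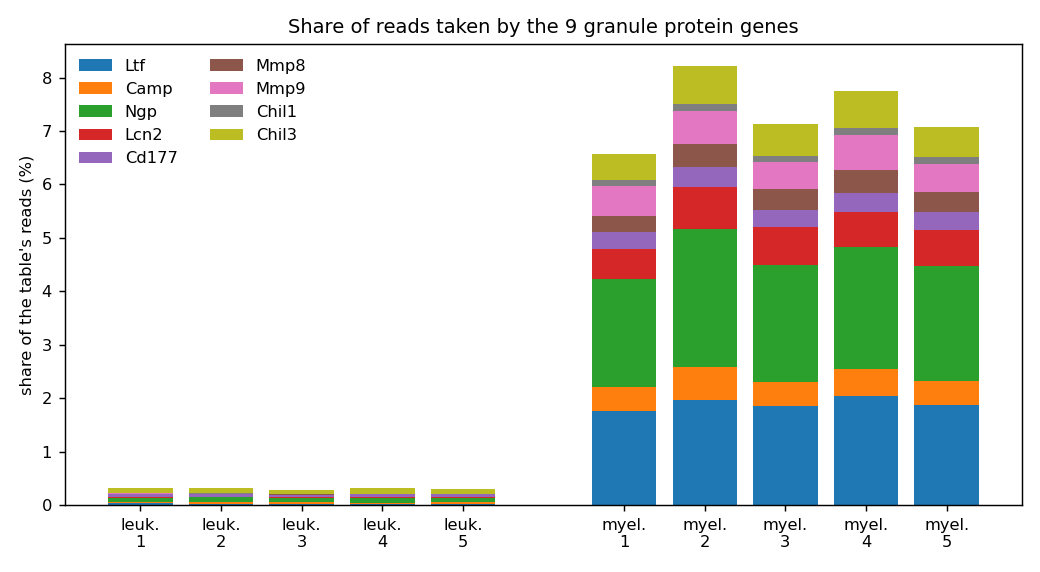
Share of the table's reads (%) taken by the 9 granule genes in each library, stacked by gene, leukaemia libraries on the left and myeloid libraries on the right. Leukaemia bars lie between 0.289% and 0.334%, and myeloid bars between 6.58% and 8.22%, with replicates 2 and 4 the tallest.

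The make-up of these reads also differed. Of the reads of the 9 genes in leukaemia cells, Chil3 took 30.1% ± 2.97, Ngp 27.3% ± 1.07 and Cd177 15.5% ± 0.515. In myeloid cells Ngp took 30.5% ± 0.779 and Ltf 25.9% ± 1.09, with Chil3 at 8.34% ± 0.536 and Cd177 at 4.58% ± 0.0740 (SD, n = 5 each). Ltf took 9.42% ± 1.68 in leukaemia cells. Mmp8, Mmp9 and Chil1 each took a smaller part in leukaemia cells, at 1.16%, 2.07% and 0.218%, than in myeloid cells, at 5.21%, 7.78% and 1.64%. The set was thus led by Chil3 and Ngp in one group and by Ngp and Ltf in the other.

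**Figure D3:**
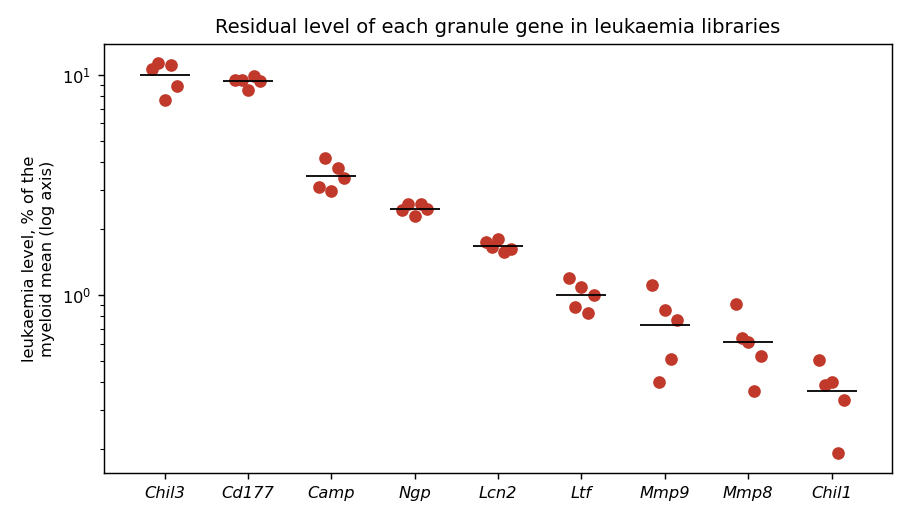
Level of each gene in the 5 leukaemia libraries as a percentage of its myeloid mean (log axis), 1 point per library with the mean as a line, genes ordered by fold. Means run between 9.91% for Chil3 and 0.364% for Chil1, and the points of Mmp8, Mmp9 and Chil1 are the most scattered.

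Whether the genes fell by unequal amounts was tested on the log2 ratio of each pair of genes within a library, which does not depend on how libraries are scaled. The exact two-sided permutation test has 252 assignments of libraries to groups and 0.00794 as its smallest p, and p-values were adjusted over all 36 pairs. Of these, 34 passed, 32 of them at the smallest p (adjusted p = 0.00893). Pairs of other genes of the table were not tested, so the count by itself does not set these pairs apart. The differences were largest for Chil1 against Chil3, where the log2 ratio averaged -7.17 ± 0.63 in leukaemia and -2.34 ± 0.11 in myeloid cells (difference -4.83, SE 0.29), and for Cd177 against Chil1 (difference 4.74, SE 0.25). Ltf against Cd177 averaged -0.74 ± 0.26 in leukaemia and 2.50 ± 0.04 in myeloid cells (difference -3.24, SE 0.12), so that Cd177 had more reads than Ltf in leukaemia cells and fewer in myeloid cells. Ltf against Ngp averaged -1.55 ± 0.28 and -0.24 ± 0.09 in leukaemia and myeloid cells (difference -1.32, SE 0.13).

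The pairs that did not pass were Mmp8 against Mmp9 (difference -0.22, SE 0.24, exact permutation test, adjusted p = 0.397) and Cd177 against Chil3 (difference -0.09, SE 0.09, exact permutation test, adjusted p = 0.335). Their p-values do not show that the members of a pair fell alike. Without leukaemia replicate 2 the ratio of Mmp8 to Mmp9 passed (difference -0.44, adjusted p = 0.0168 by the exact permutation test). On the deposited scale, which compresses low values, Ltf against Mmp8 and Ltf against Mmp9 did not pass (adjusted p = 0.182 and 0.269 by the exact permutation test), and the order of Chil1 relative to Ltf, Mmp8 and Mmp9 was turned round. Without replicates 2 and 4 no pair changed its sign, but the difference of Ltf against Mmp9 was 0.21 with overlapping groups, against 0.53 over all libraries. That of Mmp8 against Mmp9 was then -0.45 without overlap.

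Within the myeloid group each of the 9 genes was higher in replicates 2 and 4 than in replicates 1, 3 and 5, as were 32.1% of all genes tested. In the leukaemia group Camp, Ngp and Chil3 were higher in replicates 2 and 4 than in the others, Ltf and Mmp9 were lower, and the remaining 4 were mixed. For that group the share of all tested genes with such a split is not given. The leukaemia split therefore does not set these genes apart. The myeloid spread was moderate, with coefficients of variation between 12.9% for Ltf and 21.4% for Chil3. The leukaemia spread fell in a wider band, between 4.98% for Ngp and 38.5% for Mmp9, with Mmp8 at 32.5% and Chil1 at 31.7%. The genes with the fewest reads in leukaemia were those with the most spread there. Without replicates 2 and 4 of both groups the log2 differences were -6.27 for Ltf, -6.21 for Mmp9, -5.97 for Chil1 and -3.20 for Chil3, and all 9 genes passed.

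**Figure D4:**
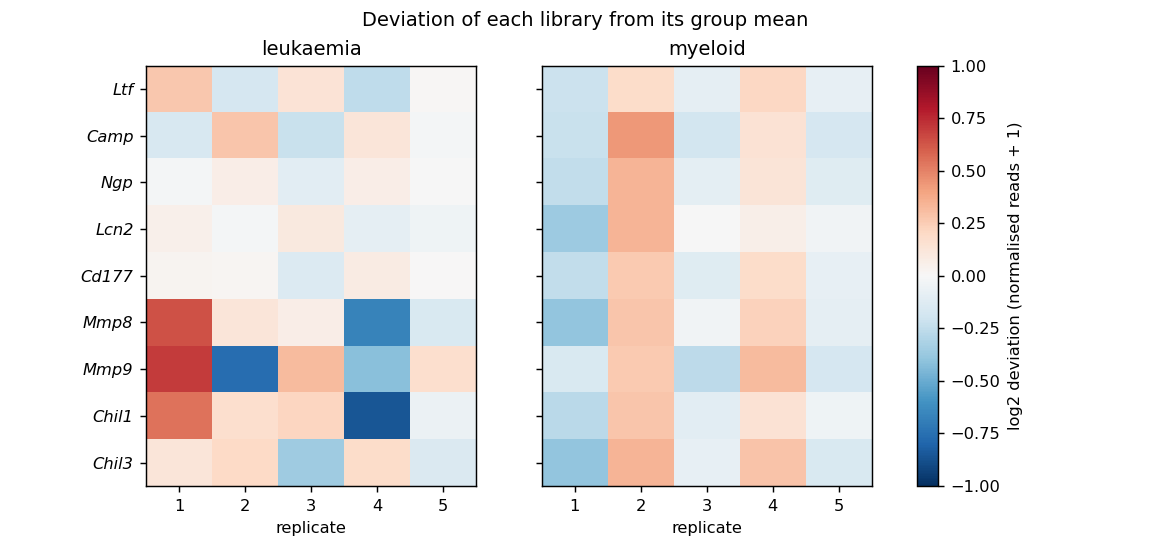
Log2 deviation of each library from its group mean (normalised reads + 1) for the 9 genes, leukaemia on the left and myeloid on the right, red above and blue below the mean. In the myeloid panel the columns of replicates 2 and 4 are red for all 9 genes, while in the leukaemia panel Camp, Ngp and Chil3 are above the mean and Ltf and Mmp9 below it in those replicates.

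For each of the 9, the gene of the rest of the table whose values over the 10 libraries lay nearest was found by root mean square distance on the log2 scale, after centring each gene. Cd177 was nearest to Rflnb, a filamin-interacting protein gene (distance 0.08), Ngp to S100a9, a subunit of calprotectin (0.11), and Chil3 to Mcemp1, a mast cell and neutrophil membrane protein gene (0.13). Camp was nearest to Wfdc21 (0.14) and Lcn2 to Cxcr2, the chemokine receptor of mature neutrophils (0.16). Chil1 and Ltf were also nearest to Cxcr2, at 0.33 and 0.48, and Mmp8 and Mmp9 to Retnlg, a resistin-like gene of neutrophils, at 0.54 and 0.49. For these 4 the nearest of the 9 themselves was closer than any other gene, as for Ltf and Mmp8 at 0.15. Centring keeps the difference between the groups, so genes with a like difference lie near each other, and the distances are a description.

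Markers of mature neutrophils moved with the granule genes. All 8 of the list had an entry and all 8 were lower in leukaemia (median log2 difference -4.68), against 50.7% of all genes tested. Their summed levels were 58481 to 63545 normalised reads in leukaemia and 1248110 to 2223345 in myeloid libraries. S100a9, the most abundant, had 23299 ± 1230 and 903435 ± 209706 normalised reads in leukaemia and myeloid cells. Retnlg had 224 ± 142 and 133868 ± 35663, a 597-fold difference that was larger than that of any of the 9 granule genes. None of the 8 was at 0 in any library. The part of neutrophil number in the granule gene results was not tested.

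Markers of other marrow cells were also read. Of 8 monocyte markers 6 had an entry and 6 were lower in leukaemia, against 50.7% of all genes tested. Their summed levels were 28331 to 47657 normalised reads in leukaemia and 76327 to 127027 in myeloid libraries. F13a1, the most abundant over all 10 libraries, had 16541 ± 3575 and 28267 ± 2374 in leukaemia and myeloid libraries. F13a1 and Csf1r no longer passed after quantile normalisation, and F13a1, Csf1r and Cx3cr1 no longer passed with libraries scaled to the table total, which left 3 of 6 lower. Macrophage markers summed to 5048 to 6961 and 11381 to 15810 normalised reads in leukaemia and myeloid libraries, with Vcam1 the most abundant in leukaemia and Slc40a1 in myeloid libraries, and of 3 tested Vcam1 was higher and Slc40a1 and Mrc1 were lower, Mrc1 without passing when scaled to the table total. Eosinophil markers summed to 193 to 360 and 3162 to 5843, led by Ear2, with 2 of 2 tested lower, and Epx, which defines these cells, was at 0 in 4 leukaemia libraries. B cell markers summed to 465 to 591 and 483 to 2249, led by Cd79b. T and NK cell markers summed to 2873 to 5866 and 1370 to 2965, and the only one tested, Nkg7, was higher in leukaemia at 4331 ± 1163 against 1004 ± 314. The 5 others lay under the filter with lower means in leukaemia, such as Ncr1 at 0.928 ± 2.07 against 451 ± 199.5, with Cd3e at 0 in 4 leukaemia libraries and 1 myeloid library. Erythroid markers summed to 2.55 to 62.0 and 17.7 to 336, led by Hba-a2. The part of these cells in the granule gene results was not tested.

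Genes of other proteins of the same granules were lower as well. Of 13 listed genes 12 had an entry, and 12 of 12 tested were lower in leukaemia (median log2 difference -2.93), against 50.7% of all genes tested. Mmp25, a membrane-bound metalloproteinase of tertiary granules, had 228 ± 47.7 and 22337 ± 3790 normalised reads in leukaemia and myeloid cells (limma log2 difference -5.05, adjusted p = 8.51e-13). Adam8, a membrane protease of neutrophil granules, had 330 ± 72.1 and 22796 ± 3395 (limma log2 difference -4.85, adjusted p = 8.51e-13). On the deposited scale, which compresses low values, both differences were larger in size than those of Camp, Cd177 and Chil3. By reads Mmp25 was 97.9-fold and Adam8 69.0-fold lower. These folds also exceeded those of Ngp (40.6-fold) and Lcn2 (59.8-fold), and were smaller than those of Ltf, Mmp8, Mmp9 and Chil1. With libraries scaled to the table total, Olfm4 no longer passed and 11 remained lower. The list holds Itgam, which the sort of the myeloid cells selected for.

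The genes of primary granule proteins went the opposite way. All 7 tested of 8 listed were higher in leukaemia (median log2 difference 2.90), against 49.1% of all genes tested. Ctsg, cathepsin G, had 29083 ± 3239 and 2280 ± 1302 normalised reads in leukaemia and myeloid cells (limma log2 difference 3.49, adjusted p = 7.56e-09). Elane, neutrophil elastase, had 80288 ± 8815 and 6976 ± 2526 (limma log2 difference 3.47, adjusted p = 6.85e-10). These enzymes are made at the stage before secondary granules form.

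**Figure D5:**
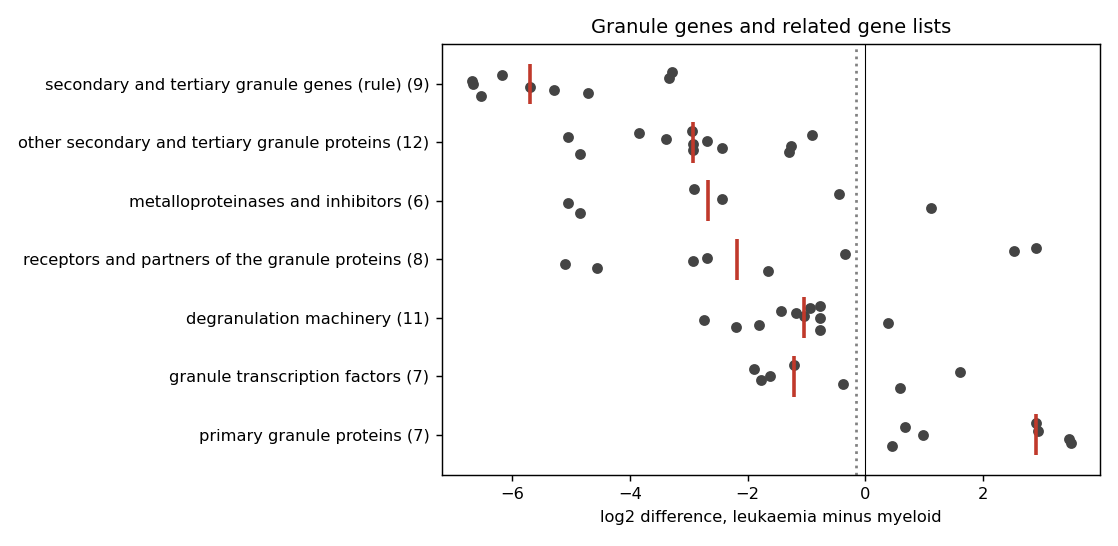
Log2 difference, leukaemia minus myeloid, of each tested gene in the 9-gene set and in 6 related lists, with the number of tested genes in brackets, the median of each as a red bar and the median of all tested genes (-0.16) as a dotted line. The 9 genes lie between -6.69 and -3.29, the other secondary and tertiary granule genes have a median of -2.93, and the primary granule genes are all above 0.

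Of the transcription factors known to act on granule genes, 7 of 8 had an entry. In leukaemia 2 were higher and 5 lower, against 49.1% and 50.7% of all genes tested. Their median log2 difference was -1.22, and -0.63 after quantile normalisation or with the table total. Gfi1, a repressor needed for neutrophil differentiation, was higher at 4552 ± 776 against 1144 ± 259 normalised reads (limma log2 difference 1.61, adjusted p = 3.71e-08). Cebpa, which directs the granulocyte and monocyte lineage, was higher at 2881 ± 460 against 1757 ± 341 (limma log2 difference 0.58, adjusted p = 0.000284). Klf5 was lower at 222 ± 43.0 against 2002 ± 390 (limma log2 difference -1.90, adjusted p = 1e-09). Cebpd was lower at 1540 ± 373 against 6535 ± 1284 (limma log2 difference -1.77, adjusted p = 6.76e-08). Cebpe, the factor without which mice lack secondary granule proteins, was lower at 2753 ± 725 in leukaemia against 9539 ± 2257 in myeloid cells (limma log2 difference -1.61, adjusted p = 9.2e-07). With libraries scaled to the table total, Cebpb no longer passed.

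Of the genes of metalloproteinases and their inhibitors, 6 of 10 were tested. In leukaemia 1 was higher and 5 lower, against 49.1% and 50.7% of all genes tested. Mmp19 was the higher one, at 907 ± 53.4 against 210 ± 56.3 normalised reads (limma log2 difference 1.12, adjusted p = 7.03e-09). Mmp25 and Adam8, described above, were the lowest. Serpinb1a, an inhibitor of neutrophil serine proteases, was lower with the authors' size factors (log2 difference -0.45), but its difference was above 0 without passing after quantile normalisation (0.14) and when libraries were scaled to the table total (0.18).

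Of 11 receptors and partners of the granule proteins 8 were tested. Among them 2 were higher and 6 lower, against 49.1% and 50.7% of all genes tested. The lower ones include Itgam, which the sort of the myeloid cells selected for, and Itgb2. Both were also counted among the other granule proteins above. Fpr2, a formyl peptide receptor that senses the human cathelicidin peptide, had 176 ± 39.7 and 21327 ± 5495 normalised reads in leukaemia and myeloid cells (limma log2 difference -5.11, adjusted p = 6.18e-12). Fpr1 had 69.8 ± 34.8 and 10519 ± 1807 (limma log2 difference -4.56, adjusted p = 2.78e-12). The higher ones were Prtn3 and Pecam1. P2rx7 was lower (log2 difference -0.34) but was above 0 without passing when libraries were scaled to the table total (0.14).

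The chitinase-like family had 6 entries of 8, of which 5 were tested. All 5 were lower in leukaemia, against 50.7% of all genes tested (median log2 difference -2.42, Chil1 and Chil3 included). With voom, which does not compress low values in this way, that median was -6.56 with size factors and -5.92 with the table total. Chit1, the neighbour of Chil1 that encodes an active chitinase, was listed at 0 reads in 3 leukaemia libraries and had 649 ± 91.5 normalised reads in myeloid cells. Of the genes that carry out granule release, 11 of 12 were tested (median log2 difference -1.04). Here 1 was higher and 10 lower, against 49.1% and 50.7% of all genes tested. Stx11, a fusion protein of the syntaxin family, was lower at 993 ± 76.0 against 9701 ± 2046 (limma log2 difference -2.74, adjusted p = 1.37e-10), and the secretory GTPase gene Rab3d was lower at 3101 ± 235 against 16516 ± 3148 (limma log2 difference -2.21, adjusted p = 7.11e-10). Srgn, whose proteoglycan serglycin packs proteins into granules, was the higher one, at 20238 ± 1483 against 15397 ± 1610 (limma log2 difference 0.39, adjusted p = 0.000736).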

How the data were processed

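RNA from sorted GFP+ leukaemia and GFP-negative CD11b+ myeloid cells was sequenced, 5 libraries a group, from 0.6 to 3.37 ug of total RNA per the labels' protocols. The authors deposited log2 variance-stabilised values for 10141 genes. Per the submitters' processing notes, HISAT2 (2.0.4 and 2.2.1) and DESeq2 were used. Their genome build, annotation and counter are not given in the sources used here. All libraries shared the lowest value, 8.1823. The transform was inverted in closed form, and with a tolerance of 0.1 read 100% of values up to 300 reads came out whole. Reads were divided by the size factors recovered with them (normalised reads). Folds are ratios of mean normalised reads. Even read numbers outnumbered odd ones (1466 of 4 to 10 against 1123 of 3 to 9), so a read can be part of a counted pair. Few genes of the table did not differ, and adjusted p-values are not rates over the transcriptome. Genes with a mean over 1 unit above the lowest value (145 normalised reads) were tested with limma 3.58.1 (R 4.3.3), with a trended prior, two-sided, adjusted by Benjamini-Hochberg over 8079 genes at 0.05. The fit was also run on simulated data in which 200 genes were changed and the rest were not. That setting differs from these data, where nearly all genes passed, so it gives no error rate for them. Pairs of genes were compared with exact permutation tests on log2(normalised reads + 1). Exon lengths come from GENCODE vM21 and promoter windows from RefSeq. The genes, lists and tests were chosen with earlier results of these data known. From each list the 2 highest and 2 lowest passing genes and the most abundant marker were named. Others, Cebpe and Chil4 among them, were named after their values were seen. No column of the table was left unused, and settings tried otherwise are given at the end.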

Additional observations from a re-analysis of the deposited data

How the results depend on the processing

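All 9 genes passed as lower in leukaemia under each of 19 alternatives (171 of 171 results). Since 99.8% of tested genes passed in the main fit, passing by itself says little. Changing the filter, the trend, the block or the number of genes adjusted over left the log2 differences as they were. Their log2 differences were smallest in size after quantile normalisation (-2.20 for Chil3, -6.05 for Mmp8) and reached -8.14 for Chil1 with voom and the authors' size factors. The genes called over the table were 8062 (49.2% higher), 10088 with no filter, 5799 with a stricter one, 7071 after quantile normalisation, 6853 with voom and the table total as library size (67.4% higher), 8050 with voom and size factors, 8064 with no trend, 7314 when adjusted over all 55450 annotated genes, and 7888 to 7959 leaving out 1 library. Scaling moved the median of all tested genes, which was -0.16, to 0.08 after quantile normalisation and 0.43 with the table total. Leaving out replicates 2 and 4 of both groups, chosen after seeing the data, gave 7699.

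Counted per kilobase of exon, the shares were 0.650% in leukaemia and 11.5% in myeloid cells, since some of the 9 are short. Of 36 pairs, 34 passed, 34 to 35 leaving out 1 library, and 32 on the deposited scale. There the difference turned from positive to negative for Ltf against Chil1 (-0.35), Mmp8 against Chil1 (-0.49) and Mmp9 against Chil1 (-0.51), because that scale compresses low values.

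The replicate numbers were not taken to pair the libraries, since the labels give no shared mouse or day and not every pair correlated over 0.1: same-numbered libraries correlated at 0.13, 0.23, 0.32, 0.29 and -0.02, and 2 of 5 correlated best with their own number. With a replicate block 8018 genes and all 9 granule genes passed (limma, highest adjusted p = 7.66e-09). In the paired sign-flip test 0 pairs passed, since its smallest p, 0.0625, cannot pass.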
